A study of Mus musculus with 29 samples.

Results

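The S100 proteins and annexins described here are 10 mouse genes: S100a4, S100a6, S100a8, S100a9, S100a10, S100a11, Anxa1, Anxa2, Anxa3 and Anxa5. They were taken by symbol from the count files and make up 10 of 25746 genes. Each was matched to 1 Ensembl identifier, and each passed the filter on low counts, which left 17031 genes to be tested. RNA sequencing was performed on cortical tissue of 29 mice in 8 groups, and stroked mice were sampled 21 days post injury (dpi) after a photothrombotic stroke, a clot induced by light in the right sensorimotor cortex. The study asked how immunodeficiency and immunosuppression alter the tissue response to stroke.

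Wildtype (WT) mice had a C57BL/6 background and were compared with Rag2-/- mice, whose T and B cells do not mature, and with NSG mice, which have a NOD background, carry altered Prkdc and Il2rg genes and also lack NK cells. The non-stroked groups held 4 WT, 3 Rag2-/- and 4 NSG mice. The stroked groups held 4 WT, 3 Rag2-/- and 3 NSG mice without drug, and WT mice that received the calcineurin inhibitor tacrolimus (Tacr) from an implanted pump. Its release started on the day of stroke in 3 mice (WT-Tacr acute) and 7 days later in 5 mice (WT-Tacr delayed). Mice were 3 months old and of both sexes. No group with a solvent-filled pump was among the samples, so drug, pump and solvent cannot be told apart. Both Tacr groups were compared with the same 4 non-stroked, untreated WT mice, so their responses share controls. The methods describe the control tissue as the contralesional site and the results as naïve mice; it is called non-stroked here.

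S100 proteins are small calcium-binding proteins that bind to target proteins when calcium rises, and several are released from damaged or activated cells and act on receptors such as RAGE (gene Ager) and TLR4. S100A8 and S100A9 form calprotectin, which is abundant in neutrophils and early monocytes. Annexins bind phospholipid membranes in the presence of calcium. ANXA1 limits leukocyte recruitment through formyl peptide receptors, ANXA2 pairs with S100A10 in a membrane complex that binds plasminogen and its activator, and ANXA5 binds phosphatidylserine on dying cells.

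On GRCm38 (GENCODE M21), 7 of the 10 genes lie on chromosome 3. S100a4 (ENSMUSG00000001020, chr3:90603771-90606045, + strand) is followed by S100a6 after 6836 bases, and S100a8 (chr3:90668978-90670035, + strand) and S100a9 (chr3:90692632-90695721, − strand) are 22596 bases apart. S100a11 (chr3:93520488-93526287) and S100a10 (chr3:93555080-93564643) are 28792 bases apart, and Anxa5 lies at chr3:36448923-36475894. Anxa1 is at chr19:20373428-20390944, Anxa2 at chr9:69453620-69491795 and Anxa3 at chr5:96793339-96845966. The model Gm42674 overlaps S100a4 on the same strand and carried 0.781 to 1.10 times its reads in every mouse, from 21 to 363 counts. How shared reads were assigned is not given in the sources used here, so the level of S100a4 is uncertain. Anxa1 and Anxa2 overlap an antisense or non-coding transcript on the other strand, from which their reads cannot be told apart if strand was not used in counting. On the same strand, Anxa3 overlaps the model Gm42603, Anxa2 the microRNA gene Mir3109 and Anxa5 the microRNA gene Mir7009. Counts of these 3 are not reported here.

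Promoter sequences are shown for 4 genes that rose after stroke in WT mice and for Anxa5, whose fold change there was below the threshold. RefSeq (GRCm38.p6) gave a window of 250 bases before to 50 bases after the start for 8 of the 10 genes; none is shown for S100a10 and Anxa3. Searched on both strands, TATAAA was found in 5 of the 8 windows (S100a4, S100a8, S100a9, Anxa1 and Anxa2) and in 13.6% of all 32851 windows, and the AP-1 motif TGANTCA in 2 of 8 (S100a11 and Anxa2) and in 7.81% of all windows. TTGCNNAA (C/EBP) was found in 2 of 8 (S100a9 and Anxa1) against 10.8%, GGGCGG (GC box) in 3 of 8 (S100a9, S100a11 and Anxa2) against 35.7%, and TTCNNNGAA (STAT) in 0 of 8 against 8.30%. No matches overlapped each other. These motifs are matches of letters, not sites shown to be bound. Anxa1, which had the highest fold change after stroke in WT mice, Anxa2, which held both motifs, S100a8, S100a11 and Anxa5, whose fold change was among the smallest, are printed 5′ to 3′ with TATAAA and TGANTCA in capitals. On the strand of the gene, the windows are chr19:20390622-20390921 for Anxa1, chr9:69453433-69453732 for Anxa2, chr3:90668821-90669120 for S100a8, chr3:93520246-93520545 for S100a11 and chr3:36475838-36476137 for Anxa5.
Anxa1: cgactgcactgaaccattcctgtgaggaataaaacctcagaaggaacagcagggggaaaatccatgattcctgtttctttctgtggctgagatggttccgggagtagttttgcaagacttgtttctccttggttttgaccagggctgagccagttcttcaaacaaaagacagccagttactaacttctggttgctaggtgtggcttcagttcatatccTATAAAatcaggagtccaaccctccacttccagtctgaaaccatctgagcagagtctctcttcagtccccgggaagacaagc
Anxa2: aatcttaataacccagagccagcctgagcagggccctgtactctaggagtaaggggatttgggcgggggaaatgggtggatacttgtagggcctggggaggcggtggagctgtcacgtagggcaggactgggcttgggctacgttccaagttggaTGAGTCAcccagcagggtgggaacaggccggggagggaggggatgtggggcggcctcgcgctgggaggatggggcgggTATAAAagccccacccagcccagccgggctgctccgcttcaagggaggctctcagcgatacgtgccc
S100a8: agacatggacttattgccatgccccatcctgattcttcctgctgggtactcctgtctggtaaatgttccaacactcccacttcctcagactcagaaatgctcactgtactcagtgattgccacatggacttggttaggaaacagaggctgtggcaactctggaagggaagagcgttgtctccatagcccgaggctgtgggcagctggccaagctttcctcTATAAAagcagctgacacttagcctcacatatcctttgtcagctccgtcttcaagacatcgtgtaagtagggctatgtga
S100a11: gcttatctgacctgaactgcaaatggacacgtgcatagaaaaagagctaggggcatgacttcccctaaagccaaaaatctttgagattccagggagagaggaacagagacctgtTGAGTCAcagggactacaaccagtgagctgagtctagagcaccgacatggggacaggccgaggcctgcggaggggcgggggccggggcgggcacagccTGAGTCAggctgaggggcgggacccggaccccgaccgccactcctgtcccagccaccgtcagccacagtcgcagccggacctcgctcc
Anxa5: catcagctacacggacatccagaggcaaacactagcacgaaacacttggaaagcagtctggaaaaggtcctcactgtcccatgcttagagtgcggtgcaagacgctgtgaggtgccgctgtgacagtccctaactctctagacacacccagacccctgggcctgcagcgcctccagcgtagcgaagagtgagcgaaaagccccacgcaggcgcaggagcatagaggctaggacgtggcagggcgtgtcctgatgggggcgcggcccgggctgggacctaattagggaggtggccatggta
Counted from the start, TATAAA began at -32 in Anxa1, -17 in Anxa2 and -30 in S100a8, and TGAGTCA at -95 in Anxa2 and at -136 and -38 in S100a11. None of the searched motifs was found in the window of Anxa5.

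Total counts ran from 17789044 to 43403413 per mouse. By the prefix of their labels, samples form 2 cohorts, Imm2 (20 mice, median 37223696 counts) and TF (9 mice, median 23155303 counts). All non-stroked, Rag2-/- and NSG mice were in Imm2 and all WT-Tacr delayed mice in TF, whereas 2 of 4 stroked WT mice and 2 of 3 WT-Tacr acute mice were in TF. Rag2 had 0 to 2 counts in all mice, too few to check the Rag2-/- label, and Il2rg, altered in NSG mice, had 0.784 to 0.979 CPM in stroked NSG and 2.11 to 3.46 CPM in stroked WT mice, but 0.681 to 1.05 and 0.716 to 0.871 CPM without stroke, where it does not check the label. Here, CPM divides each count by the effective library size after TMM. As a check of the labelled brain tissue, 6 neuronal markers summed to 4299 to 7856 CPM in all mice.

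**Figure D1:**
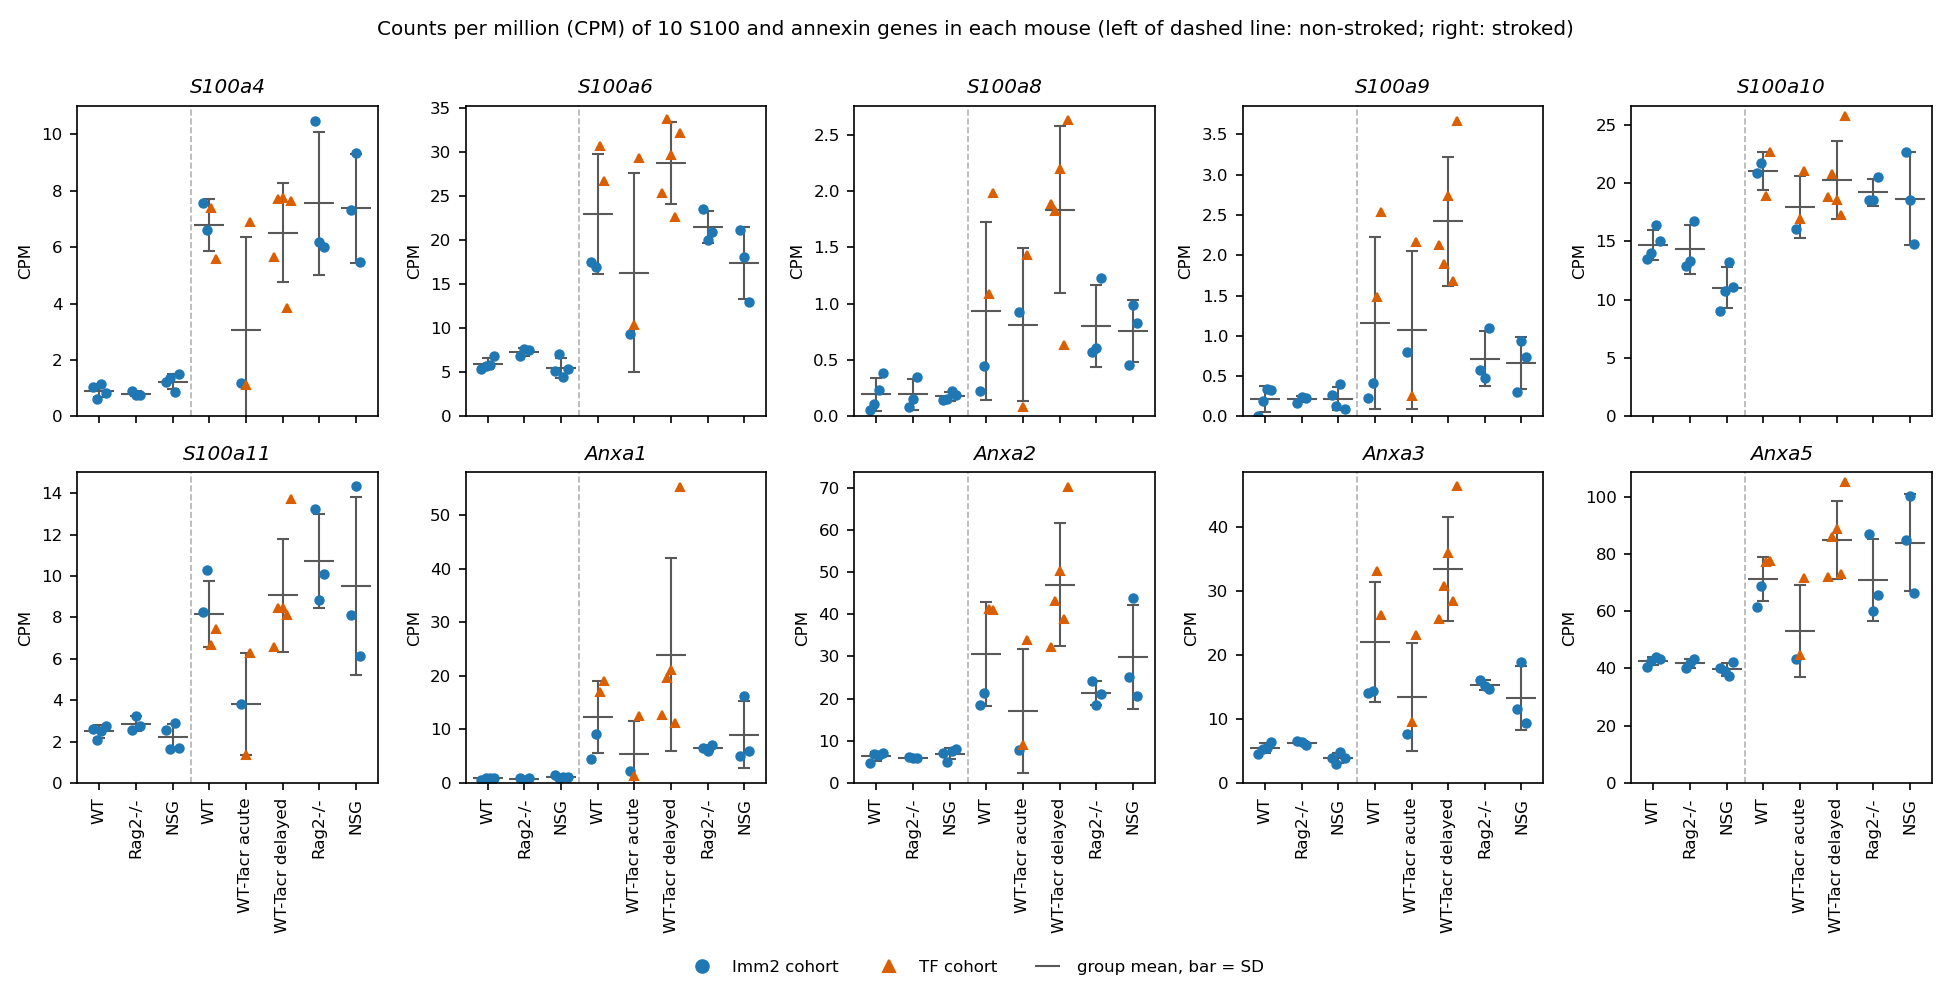
CPM (linear axes from 0) of the 10 genes in each of 29 mice by group, with points for mice, circles for Imm2, triangles for TF, and group mean ± SD, cut at 0. Over all groups, the ranges of non-stroked and stroked mice overlap for 8 genes, all but S100a6 and Anxa3. Delayed tacrolimus mice reach the highest values for 8 genes. Of the 3 acute tacrolimus mice, 1 lies within the range of stroked WT mice for all genes but S100a11.

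In non-stroked WT brain, per kilobase of exon, Anxa5 was the most abundant of the 10 genes (24.0 ± 0.788 CPM per kb; SD, n = 4), followed by S100a10 (12.1 ± 1.06), S100a11 (4.87 ± 0.589) and S100a6 (4.37 ± 0.466). Anxa2, S100a4 and Anxa3 lay between 1.49 and 1.70 CPM per kb, and S100a9, Anxa1 and S100a8 between 0.284 and 0.414 CPM per kb. S100a8 and S100a9 had 83 counts or fewer in any mouse, and S100a9 had 0 counts in 1 non-stroked WT mouse, which allows up to 0.0854 CPM there (3 counts; counting error only).

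At 21 dpi, 8 of the 10 genes rose in WT mice, against 6.76% of all 17031 genes called higher (edgeR's quasi-likelihood test, adjusted p below 0.05 and a log2 fold change above 1). The exceptions were S100a10 and Anxa5, whose log2 fold changes were below 1. The median log2 fold change of the 10 genes was 2.10, and that of all genes was -0.00045. In 8 of the 10 genes all stroked WT mice lay above all non-stroked WT mice, as did 16.3% of all genes, and the 2 that overlapped were S100a8 and S100a9. In tissue pieces, a change in the number of cells of a type and a change in RNA per cell cannot be told apart.

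**Figure D2:**
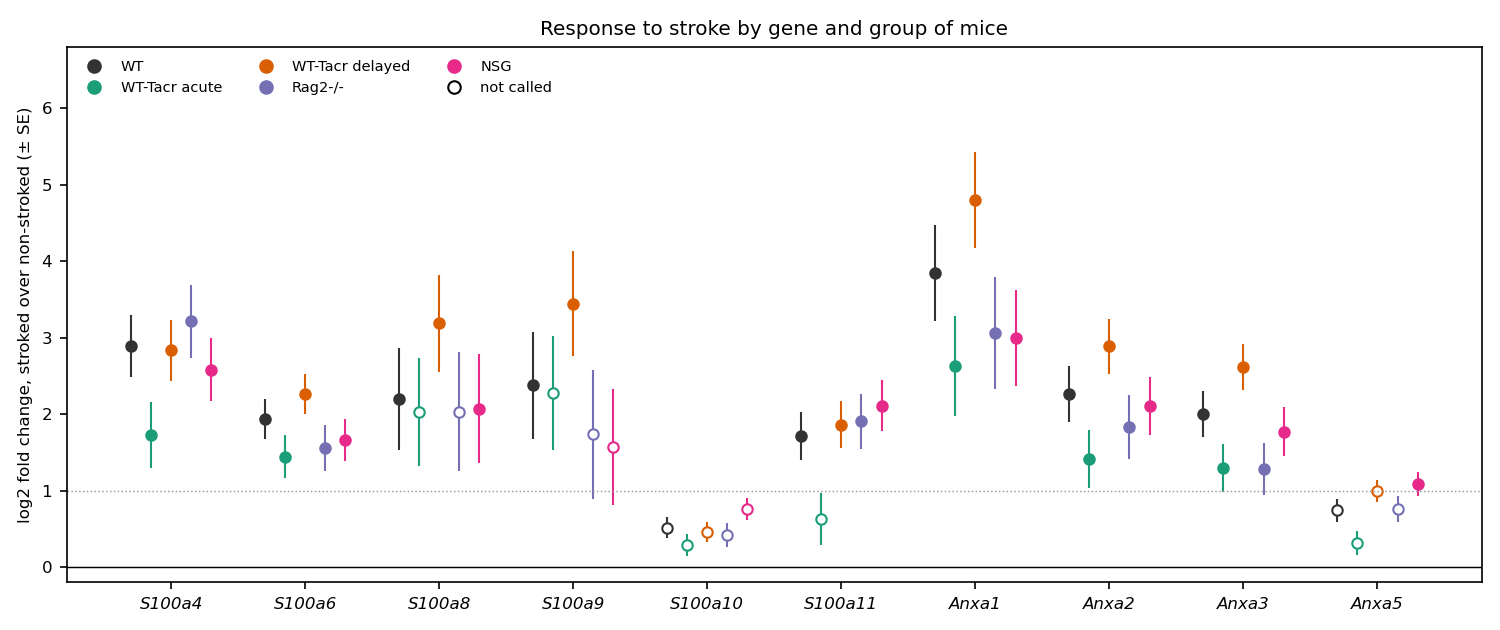
Log2 fold change (± SE) of stroked over non-stroked mice for each gene in 5 groups of mice; filled circles passed the test and the dotted line marks a log2 fold change of 1. Anxa1 has the highest value in WT (3.85) and WT-Tacr delayed mice (4.80), and S100a10 stays below 1 in every group.

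Anxa1, whose protein damps leukocyte entry, had 0.484, 0.979, 0.981 and 0.962 CPM in non-stroked WT mice. In stroked WT mice it had 4.54 and 9.22 CPM in Imm2 and 16.9 and 19.0 CPM in TF. All stroked mice were higher, and the TF mice were higher than the Imm2 mice. The log2 fold change was 3.85 ± 0.63 (SE, adjusted p = 0.000119, edgeR), a 14.4-fold difference. In Rag2-/- mice Anxa1 went from 0.577 to 0.906 CPM in 3 non-stroked mice to 6.54, 5.96 and 7.11 CPM after stroke (log2 fold change 3.06 ± 0.73, adjusted p = 0.00932). NSG mice had 0.990 to 1.40 CPM without stroke and 5.01, 16.2 and 5.91 CPM with it (2.99 ± 0.63, adjusted p = 0.00175). The groups did not overlap in either strain, and NSG mouse 2 stood above the other two. The call in Rag2-/- mice was lost without non-stroked mouse 2 of that strain, and the log2 fold change was 2.88 to 3.18 over all fits without 1 mouse.

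Anxa2, a membrane-bound plasminogen co-receptor, had 4.73, 6.83, 6.63 and 7.12 CPM in non-stroked WT mice. After stroke it had 18.4 and 21.3 CPM in Imm2 and 41.3 and 40.9 CPM in TF. The values thus fall into pairs by cohort, all above the non-stroked mice (log2 fold change 2.26 ± 0.36, adjusted p = 0.000107). Stroked Rag2-/- mice had 24.1, 18.5 and 21.2 CPM, close to the Imm2 WT mice, against 5.88 to 6.06 CPM without stroke (1.84 ± 0.42, adjusted p = 0.00642). Stroked NSG mice had 25.2, 43.8 and 20.6 CPM against 5.002 to 8.11 CPM (2.11 ± 0.38, adjusted p = 0.000483).

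S100a10, which codes for the partner of ANXA2, had 13.5, 13.98, 16.4 and 15.04 CPM in non-stroked and 20.9, 21.7, 18.9 and 22.7 CPM in stroked WT mice, which did not overlap (log2 fold change 0.52 ± 0.14, adjusted p = 0.00723). In Rag2-/- mice the log2 fold change was 0.42 ± 0.16 (adjusted p = 0.0998), and in NSG mice, which started lower at 9.04 to 13.2 CPM, it was 0.76 ± 0.15 (adjusted p = 0.000913). The fold change of S100a10 was below the threshold in all 3 strains, and its reads were therefore set beside those of Anxa2. The count ratio of Anxa2 to S100a10 was 0.351 to 0.488 in non-stroked WT, 0.351 to 0.469 in non-stroked Rag2-/- and 0.465 to 0.793 in non-stroked NSG mice. In stroked mice it was 0.883, 0.982, 2.18 and 1.80 in WT, 1.30, 1.0 and 1.03 in Rag2-/- and 1.11, 2.36 and 1.40 in NSG. All stroked mice of these 3 groups lay above all 11 non-stroked mice. The ratio is in reads per read, and exon length differs between the genes (3731 and 1212 bases), so it does not give molecules.

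**Figure D3:**
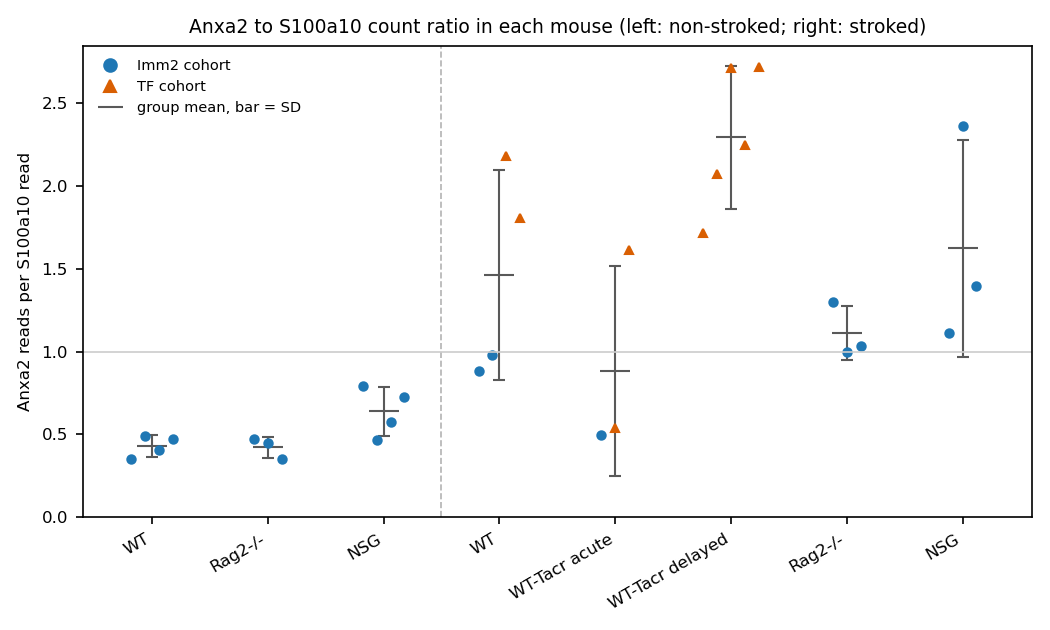
Anxa2 reads per S100a10 read (linear axis) in each mouse by group, with circles for Imm2, triangles for TF, and group mean ± SD. The ratio is below 0.8 in all non-stroked mice, and 2 of 3 acute tacrolimus mice (0.493 and 0.539) lie in that range.

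Anxa3 had 4.56, 5.30, 5.46 and 6.43 CPM in non-stroked WT mice, and 14.1, 14.3, 33.1 and 26.2 CPM after stroke, the last 2 being TF mice. The groups did not overlap (log2 fold change 2.01 ± 0.30, adjusted p = 6.03e-05). The change was 1.28 ± 0.34 in Rag2-/- (adjusted p = 0.0197), where stroked mice had 16.1, 15.1 and 14.6 CPM, and 1.77 ± 0.32 in NSG mice (adjusted p = 0.000537), where they had 11.5, 18.9 and 9.33 CPM. In Rag2-/- mice the call of Anxa3 was lost in 4 of 6 fits that left out 1 mouse (each of the 3 non-stroked mice and stroked mouse 1), with log2 fold changes of 1.24 to 1.31. Anxa5, which had the highest level of the 10 genes, had 40.6 to 43.9 CPM in non-stroked WT and 61.3, 68.9, 77.2 and 77.7 CPM in stroked WT mice (log2 fold change 0.74 ± 0.15, adjusted p = 0.000701). It passed both thresholds in NSG mice alone (1.08 ± 0.16, adjusted p = 7.82e-05), where stroked mice had 85.0, 100.2 and 66.5 CPM, but the difference from its response in WT mice was 0.34 (95% interval -0.10 to 0.78) and was not called. Without stroked NSG mouse 2 its log2 fold change was 0.92, below the threshold.

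S100a4, known from motile and fibroblast-like cells and reactive astrocytes, had 1.05, 0.626, 1.14 and 0.825 CPM in non-stroked WT mice and 7.57, 6.61, 7.39 and 5.56 CPM after stroke. Its Imm2 and TF stroked mice overlapped, and all lay above the non-stroked mice (log2 fold change 2.89 ± 0.41, adjusted p = 3.67e-05). Stroked Rag2-/- mice had 10.5, 6.18 and 6.01 CPM (3.21 ± 0.48, adjusted p = 0.000269), and stroked NSG mice 7.31, 9.34 and 5.48 CPM (2.58 ± 0.41, adjusted p = 0.000162). No stroked mouse of these groups overlapped the non-stroked mice, whose values lay between 0.626 and 1.49 CPM. Because Gm42674 took a near-equal number of reads, these levels hold only for reads given to S100a4.

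S100a6, a calcium sensor of astrocytes and proliferating cells, had 5.44, 5.74, 5.83 and 6.90 CPM in non-stroked WT mice and 17.6, 16.9, 30.7 and 26.7 CPM after stroke (log2 fold change 1.94 ± 0.27, adjusted p = 3.08e-05). It rose as well in Rag2-/- mice (1.55 ± 0.30, adjusted p = 0.00218) and NSG mice (1.66 ± 0.28, adjusted p = 0.000274), where stroked mice had 20.1 to 23.5 and 13.004 to 21.2 CPM. S100a11, which acts in membrane repair with annexins, had 2.59, 2.07, 2.52 and 2.78 CPM without stroke and 8.26, 10.3, 6.65 and 7.42 CPM with it (log2 fold change 1.71 ± 0.31, adjusted p = 0.000361). Here the TF mice were the lower pair. Its change was 1.91 ± 0.36 in Rag2-/- (adjusted p = 0.00186) and 2.11 ± 0.33 in NSG mice (adjusted p = 0.000144).

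S100a8 and S100a9, the calprotectin pair, were scarce. In non-stroked WT mice S100a8 had 0.0569, 0.109, 0.239 and 0.385 CPM, and after stroke 0.227 and 0.445 CPM in Imm2 and 1.09 and 1.99 CPM in TF. S100a9 had 0, 0.19, 0.345 and 0.33 CPM without stroke and 0.227, 0.417, 1.48 and 2.54 CPM with it. In both genes the Imm2 stroked mice lay within or just above the range of the non-stroked mice, and the TF mice lay above it. Both rose in the fit of all mice, S100a8 with a log2 fold change of 2.20 ± 0.66 (adjusted p = 0.017) and S100a9 with 2.38 ± 0.70 (adjusted p = 0.0152). Within Imm2, which had 2 stroked and 4 non-stroked WT mice, S100a8 changed by 0.75 ± 0.61 (adjusted p = 0.498) and S100a9 by 0.55 ± 0.74 (adjusted p = 0.696), and neither was called with cohort as a covariate (adjusted p = 0.225 and 0.344). Without stroked WT mouse 4 both calls were lost (1.47 for S100a8 and 1.59 for S100a9), as was that of S100a8 without non-stroked WT mouse 1 or 3.

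In the immunodeficient strains, all in Imm2, 1 of the 4 tests of the calprotectin genes passed. Stroked Rag2-/- mice had 0.574, 0.61 and 1.23 CPM of S100a8 and 0.574, 0.471 and 1.10 CPM of S100a9, above all 3 non-stroked mice, but neither passed the test (log2 fold change 2.03 ± 0.78, adjusted p = 0.115, and 1.74 ± 0.84, adjusted p = 0.228). In NSG mice S100a8 rose (2.07 ± 0.71, adjusted p = 0.0391), a call lost in all 7 fits that left out 1 mouse, with log2 fold changes of 1.81 to 2.33, and S100a9 had a log2 fold change of 1.57 ± 0.76 (adjusted p = 0.138). Stroked NSG mice had 0.455, 0.988 and 0.826 CPM of S100a8 and 0.304, 0.939 and 0.734 CPM of S100a9.

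The other 6 genes that rose in WT mice also passed the test within Imm2, with log2 fold changes of 2.96 for S100a4, 1.53 for S100a6, 1.90 for S100a11, 3.01 for Anxa1, 1.65 for Anxa2 and 1.39 for Anxa3. With cohort as a covariate the same 6 genes were called. Of all genes, 4.03% were called in either direction within Imm2 and 4.18% with the covariate. Fold changes of Anxa1, Anxa2, Anxa3 and S100a6 were smaller within Imm2 than in all WT mice, and those of S100a4 and S100a11 were not. The cohorts differ in depth and in whatever else their prefix stands for, and the part of each in these values was not tested.

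**Figure D4:**
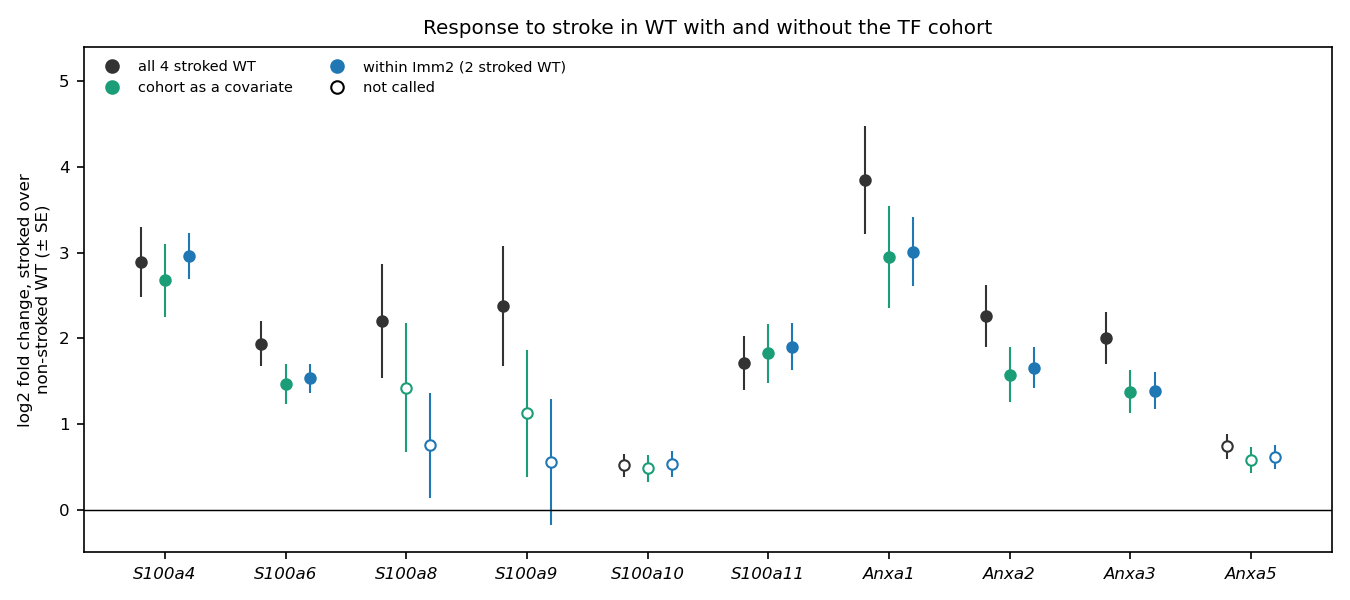
Log2 fold change (± SE) of stroked over non-stroked WT mice for each gene in all mice (black), with cohort as a covariate (green) and within Imm2 (blue); open circles did not pass the test. S100a8 falls from 2.20 to 0.75 and S100a9 from 2.38 to 0.55 within Imm2, and 6 genes pass in all 3 fits.

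In Rag2-/- mice 6 of the 10 genes rose, against 4.22% of all genes, and all 10 lay apart without overlap, against 18.8%. In NSG mice 8 of 10 rose, against 5.01%, and 9 lay apart, against 13.6%. The median log2 fold change of the 10 genes was 1.79 in Rag2-/- and 1.92 in NSG mice. Whether the response itself differed from that in WT mice was tested as a difference of differences. None of the 10 genes was called in Rag2-/- mice (0% of all genes called in either direction) or in NSG mice (0.0117%), and none had an unadjusted p below 0.05. In all genes, 713 had an unadjusted p below 0.05 for Rag2-/- and 2167 for NSG mice. DESeq2 called 0 of the 10 genes in both, against 0% and 0.268% of all 25746 genes. The intervals were wide: for Anxa1 the response differed by -0.79 (95% interval -2.76 to 1.17) in Rag2-/- and by -0.86 (-2.66 to 0.95) in NSG mice, and for S100a9 by -0.64 (-2.94 to 1.67) and -0.81 (-2.98 to 1.36). These intervals hold both signs, and the values moved with the handling of cohort. Stroked WT mice came from both cohorts. With cohort as a covariate S100a9 turned to 0.61 and 0.44, and within Imm2, which had 2 stroked WT mice, to 1.20 and 1.01. The cause was not tested. Anxa1 was 0.11 and 0.044 with the covariate and 0.057 and -0.019 within Imm2. For Anxa5 and S100a10 the intervals of the main fit were narrower, -0.44 to 0.48 and -0.52 to 0.33 in Rag2-/- mice.

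Without stroke, none of the 10 genes was called between strains. Of all genes, 0.00587% were called between Rag2-/- and WT mice, 3.36% between NSG and WT mice and 2.80% between NSG and Rag2-/- mice. By edgeR at an unadjusted p below 0.05 there were 0, 1 and 2 of the 10 genes, against 349, 3894 and 3099 of all 17031. DESeq2 called 0 of the 10 in each, against 0.00777%, 2.56% and 2.21% of all 25746 genes. Intervals were again wide for scarce genes, such as -1.69 to 1.43 for Anxa1 between Rag2-/- and WT mice, and narrower for Anxa5 (-0.35 to 0.30). The single gene between NSG and WT mice was S100a10, which had 9.04, 10.8, 13.2 and 11.1 CPM in NSG mice and lay below all WT mice (log2 fold change -0.41 ± 0.14, adjusted p = 0.0553). Anxa3 had 2.92 to 4.85 CPM in NSG and 5.97 to 6.48 CPM in Rag2-/- mice (-0.69 ± 0.33, adjusted p = 0.258). Anxa1 lay above all WT and all Rag2-/- mice in NSG mice, by 0.41 ± 0.67 and 0.54 ± 0.74 on the log2 scale, within its error.

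With tacrolimus from the day of stroke, 5 of 10 genes rose over the non-stroked WT mice (S100a4, S100a6, Anxa1, Anxa2 and Anxa3), against 2.28% of all genes, and 4 lay apart, against 10.4%. The 3 mice did not behave alike. Anxa1 had 2.17 CPM in mouse 1 (Imm2), 1.33 CPM in mouse 2 (TF) and 12.6 CPM in mouse 3 (TF). S100a4 had 1.19, 1.12 and 6.88 CPM, Anxa2 7.91, 9.12 and 33.9 CPM, S100a6 9.32, 10.3 and 29.3 CPM, and Anxa3 7.59, 9.57 and 23.02 CPM in the same order. Mouse 3 lay within the range of stroked WT mice in these 5 genes, and mice 1 and 2 lay below all stroked WT mice. Mouse 1 was above the highest non-stroked WT mouse in 8 genes, mouse 2 in 6 and mouse 3 in all 10. The share of all genes that lay above it was not computed, so these counts only describe the mice. Some of the differences were small, such as 1.05-fold of the non-stroked WT mean for Anxa5 in mouse 2 and 1.25-fold for Anxa2 in mouse 1.

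**Figure D5:**
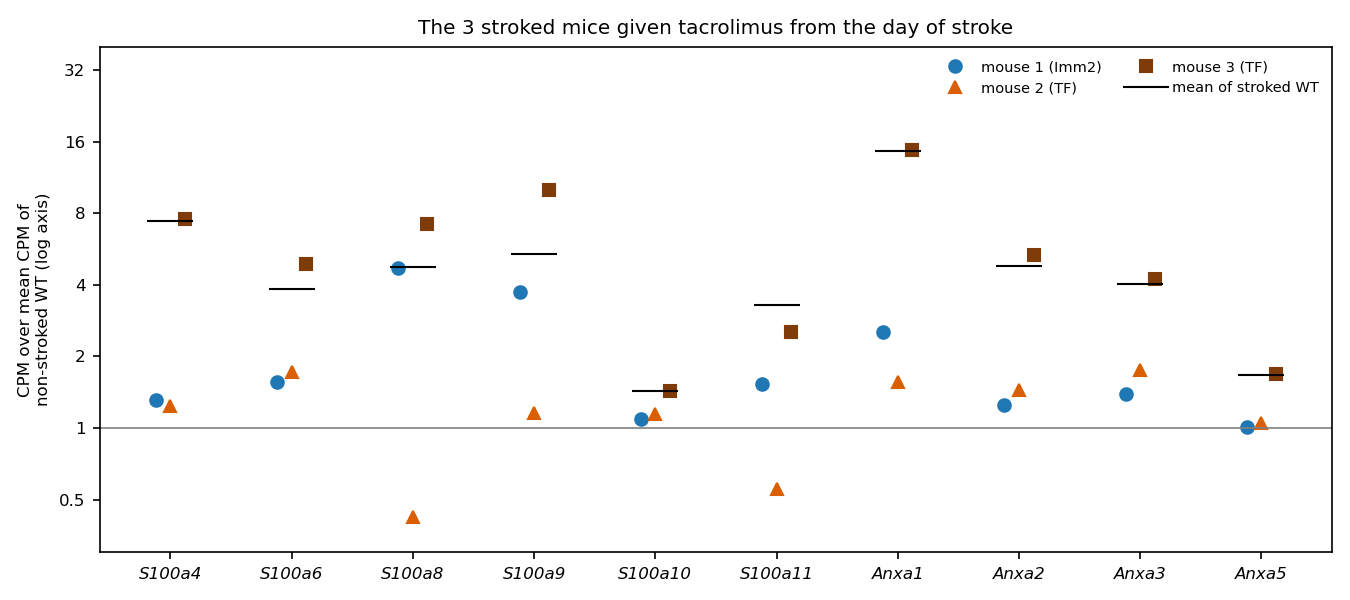
CPM of each of the 3 WT-Tacr acute mice divided by the mean CPM of non-stroked WT mice (log axis), by gene, with the mean of stroked WT mice as a black bar. For Anxa1 mouse 3 lies near the bar (14.7-fold), whereas mouse 1 has 2.54-fold and mouse 2 has 1.56-fold. Mouse 3 lies above the bars for S100a8 (7.24-fold) and S100a9 (10-fold) and below the bar for S100a11 (2.53-fold). For S100a8 and S100a9 mouse 1 has 4.69-fold and 3.72-fold.

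For the calprotectin genes mouse 1 had another place. S100a8 had 0.925, 0.0832 and 1.43 CPM and S100a9 had 0.803, 0.25 and 2.16 CPM, so that mouse 1 exceeded both Imm2 stroked WT mice. Neither passed the test (log2 fold change 2.03 ± 0.71, adjusted p = 0.0674, and 2.27 ± 0.74, adjusted p = 0.0546), whereas DESeq2 called both. S100a11, with 3.82, 1.37 and 6.30 CPM, had a log2 fold change of 0.63 ± 0.34 (adjusted p = 0.233). Without mouse 3 none of the 10 genes was called over the non-stroked mice (0.133% of all genes called), and Anxa1 had a log2 fold change of 1.05. Without mouse 2, 7 were called (2.79%). Single controls mattered too: without non-stroked mouse 1 the calls of Anxa1, Anxa2 and Anxa3 were lost, without mouse 3 those of S100a4 and Anxa2, and without mouse 5 that of Anxa2. Of the 10 genes 0 were called within Imm2, which leaves mouse 1 alone (0.200% of all genes), with cohort as a covariate (0.182%), and in a fit of only these 2 groups (0.132%).

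Compared directly, none of the 10 genes was called between stroked WT-Tacr acute and stroked WT mice (0% of all genes called). By edgeR 5 of the 10 and 2168 of 17031 genes had an unadjusted p below 0.05. DESeq2 called 0 of the 10, against 0.00777% of all 25746 genes. All 10 log2 differences were below 0, with a median of -0.60, but within Imm2, with 1 acute mouse, S100a8 was 1.46 and S100a9 1.32, and without stroked WT mouse 4 they were 0.56 and 0.68. S100a11 was lower in every acute mouse than in every stroked WT mouse (-1.09 ± 0.34, 95% interval -1.78 to -0.39, adjusted p = 0.311). The interval was -2.01 to -0.32 for S100a4 and -2.45 to 0.01 for Anxa1. Leaving out mouse 3 gave 6 of 10 genes lower (S100a4, S100a6, S100a11, Anxa1, Anxa2 and Anxa3), against 3.99% of all genes called in either direction. That mouse stands apart by the level of these same genes, so this is a description of the other two mice and no test. Within TF the difference of Anxa1 was -1.38 ± 0.94 (adjusted p = 0.516). Within Imm2 it was -1.66, a value from 1 acute mouse.

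With tacrolimus delayed by 7 days, 8 of 10 genes rose, against 11.5% of all genes, and all 10 lay apart, against 26.5%. Anxa1 had 12.7, 19.6, 21.1, 11.2 and 55.2 CPM (log2 fold change 4.80 ± 0.63, adjusted p = 2.18e-06), Anxa2 32.3, 43.1, 50.3, 38.7 and 70.2 CPM (2.89 ± 0.36, adjusted p = 1.26e-06) and Anxa3 25.5, 30.8, 35.9, 28.4 and 46.3 CPM (2.62 ± 0.30, adjusted p = 5.66e-07). Mouse 5 was the highest in all 3 annexins. S100a9 had 2.13, 1.89, 2.73, 1.67 and 3.67 CPM and S100a8 1.89, 1.83, 2.19, 0.634 and 2.63 CPM, the highest group means of both genes, with log2 fold changes of 3.45 ± 0.68 (adjusted p = 0.000189) and 3.19 ± 0.64 (adjusted p = 0.000216). S100a4 (2.83 ± 0.40), S100a6 (2.26 ± 0.26) and S100a11 (1.86 ± 0.31) rose as well. Anxa5 had a log2 fold change of 0.99 ± 0.14, just below the threshold, which it passed without non-stroked mouse 4 or 5 or delayed mouse 1 or 4 (at most 1.05), and S100a10 of 0.46 ± 0.13.

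These mice were all in TF and their controls all in Imm2, so a comparison within a cohort was not possible. Cohort was also taken as a covariate, estimated from the stroked WT and WT-Tacr acute mice. With it 6 of 10 genes were called, against 4.24% of all genes in either direction. S100a8 (2.07 ± 0.86, adjusted p = 0.134) and S100a9 (1.71 ± 0.85, adjusted p = 0.216) were not called. Against stroked WT mice none of the 10 genes was called (0% of all genes called). By edgeR 1 of 10 and 3455 of 17031 genes had an unadjusted p below 0.05. DESeq2 called 0 of the 10, against 0.00388% of all 25746 genes. Anxa1 was 0.95 higher on the log2 scale (95% interval -0.08 to 1.99), S100a9 1.07 (-0.12 to 2.26) and S100a8 0.99 (-0.14 to 2.11). Within TF, where 5 delayed and 2 WT mice can be set side by side, the differences were 0.42 ± 0.76, 0.26 ± 0.59 and 0.24 ± 0.70, all with an adjusted p of 0.9998.

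Mice with delayed tacrolimus had higher levels than mice with acute tacrolimus in 5 of 10 genes, against 5.22% of all genes called higher. The log2 differences were 2.17 ± 0.60 for Anxa1 (adjusted p = 0.0159), 1.47 ± 0.37 for Anxa2 (0.0125), 1.32 ± 0.31 for Anxa3 (0.0106), 1.23 ± 0.33 for S100a11 (0.0142) and 1.11 ± 0.40 for S100a4 (0.0497), all adjusted p by edgeR. Only S100a11, Anxa3 and Anxa5 lay apart without overlap, against 8.81% of all genes. Without acute mouse 1 or acute mouse 2, 0 of the 10 and 0% of all genes were called. Without acute mouse 3, 7 of 10 and 11.2% of all genes were called, and without delayed mouse 5, 3 of 10 and 2.54%. The call of S100a4 was also lost without delayed mouse 1, 2 or 3. Within TF, which has 2 acute and 5 delayed mice, 0 of 10 and 0% of all genes were called. Anxa1 differed by 1.79 ± 0.85 and Anxa2 by 1.14 ± 0.46 (adjusted p = 0.211 and 0.177). Between these groups 5 of 8 monocyte and macrophage, 5 of 6 meningeal fibroblast and 3 of 5 choroid plexus markers were also called higher. Choroid plexus markers summed to 4.54 to 18.3 CPM in the acute mice and to 603.99, 12.3, 849.97, 835.3 and 807.8 CPM in delayed mice 1 to 5. Their part in the result was not tested.

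Ordered by group mean, every gene was lowest in the 3 non-stroked groups and the acute tacrolimus group had the lowest mean of the stroked groups for 7 genes (S100a4, S100a6, S100a10, S100a11, Anxa1, Anxa2 and Anxa5). For S100a8 and S100a9 that place was taken by stroked NSG mice, and likewise for Anxa3. The delayed tacrolimus group was highest for S100a6, S100a8, S100a9, Anxa1, Anxa2, Anxa3 and Anxa5, stroked Rag2-/- mice for S100a4 and S100a11 and stroked WT mice for S100a10. Neighbouring stroked groups overlapped in each of these genes but S100a11, where the acute group lay below stroked WT mice. The per-kilobase order of the abundant genes held Anxa5 first in all 8 groups, whereas S100a10 was second in the non-stroked, stroked WT and acute groups, S100a11 in stroked Rag2-/- and NSG mice and S100a6 in the delayed group.

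The rest of the 2 families was described by the same test. Of 10 other S100 genes in the files 7 were tested, and 0 were called in WT, acute and Rag2-/- mice, 1 in NSG (S100a13) and 2 in delayed mice (S100a3 and S100a5), names taken after their values were seen. The median log2 fold change in WT mice was 0.54. S100a5 changed by 5.23 ± 2.02 in delayed mice (adjusted p = 0.033, edgeR) and by 5.32 ± 2.03 in WT mice (adjusted p = 0.0558). It had 0 counts in all Rag2-/- mice. Of 7 other annexins 6 were tested, and Anxa4, a membrane-binding annexin of epithelial cells, was the single one called in WT (1.57 ± 0.31, adjusted p = 0.000728), Rag2-/- (1.80 ± 0.37), NSG (1.53 ± 0.32) and delayed mice (2.20 ± 0.31), with a median of 0.22 for the list in WT mice.

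Among 11 tested receptors and binding partners, 3 rose in WT, 1 in acute, 7 in delayed, 4 in Rag2-/- and 1 in NSG mice, and 0 fell. Cd36, a scavenger receptor that binds S100A8/A9, changed by 4.04 ± 0.83 on the log2 scale in WT mice (adjusted p = 0.00106, edgeR). It changed by 3.84 ± 1.02 in Rag2-/- (adjusted p = 0.0191), 3.11 ± 0.88 in acute (0.0313) and 5.47 ± 0.83 in delayed mice (1.11e-05). In NSG mice the change was 1.10 ± 0.77 (adjusted p = 0.317). Whether its response differed between groups is not reported here. Tlr4, a receptor of S100A8/A9, changed by 1.87 ± 0.35 in WT animals (adjusted p = 0.00039). Ager, which codes for RAGE, was the third gene called in WT mice (1.04 ± 0.27, adjusted p = 0.00673), and is named because the count was 3. Serpinf2, which codes for the inhibitor of plasmin, the protease formed from the plasminogen that ANXA2 and S100A10 gather at the cell surface, changed by 2.48 ± 0.44 on the log2 scale in WT animals (adjusted p = 0.00026).

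Markers of cells that could carry these transcripts moved with the groups, and their part in the results was not tested. Neutrophil markers, 10 genes of which 5 were tested, summed to 6.64 to 9.65 CPM in non-stroked WT, 16.6 to 26.2 in stroked WT, 7.99 to 25.0 in acute, 23.5 to 34.4 in delayed, 19.3 to 24.3 in stroked Rag2-/- and 21.7 to 42.8 CPM in stroked NSG mice. Called were 2 of 5 in WT (Cxcr2 and Csf3r), 0 in acute, 3 in delayed, 1 in Rag2-/- and 2 in NSG mice. Ly6g, which defines neutrophils, was too low to be tested and had 0 counts in all delayed and all non-stroked Rag2-/- mice. Elane had 0 counts in all delayed mice. Delayed mice had the lowest median total of the groups (21878621 counts, against 38667861 in non-stroked WT mice), so low levels of both genes could be missed there. Sums in non-stroked Rag2-/- and NSG mice were 7.43 to 8.88 CPM.

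Monocyte and macrophage markers (8 of 8 tested) summed to 6.09 to 9.24 CPM in non-stroked WT, 132 to 505 in stroked WT, 29.01, 14.4 and 441 in acute mice 1, 2 and 3, 347 to 996 in delayed, 174 to 218 in stroked Rag2-/- and 234 to 726 CPM in stroked NSG mice. Called were 7 in WT, 5 in acute, 7 in delayed, 5 in Rag2-/- and 4 in NSG mice, with Lyz2 at a log2 fold change of 6.22 ± 0.87 and Ms4a7 at 4.50 ± 0.79 in WT mice. Meningeal fibroblast markers (6 of 6 tested) summed to 83.6 to 95.8 CPM in non-stroked WT and 319 to 686 CPM in stroked WT mice, 84.8 to 429 in acute, 397 to 1597 in delayed, 352 to 374 in Rag2-/- and 223 to 1331 CPM in NSG mice, with 5, 2, 5, 5 and 5 genes called. Vim and Gfap of 6 astrocyte markers were called in all 5 stroke comparisons, and of 7 microglial markers 4 rose in WT, 1 in acute, 5 in delayed and 2 each in Rag2-/- and NSG mice. The sums of astrocyte markers were 1031 to 1214 CPM in non-stroked and 2192 to 2696 CPM in stroked WT mice, and those of microglial markers 242 to 282 and 429 to 576 CPM. Of 6 neuronal markers 1 fell, in delayed mice (Rbfox3). By edgeR, 0 of 5 endothelial, 5 oligodendrocyte, 5 choroid plexus and 4 red blood cell markers were called in any comparison of stroked with non-stroked mice. Of 5 tested T cell markers 3 rose in WT and 4 in delayed mice and 0 in the other groups.

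By root mean square difference of centred log2 CPM over all 29 mice and 17021 other genes, the profile closest to that of S100a8 was Cxcr2 (0.56), a chemokine receptor of neutrophils, and Cxcr2 was also the closest to S100a9 (0.58). The closest to Anxa1 were Sfrp4 (0.35) and the collagen gene Col1a2 (0.37), to Anxa2 the lipid droplet gene Plin2 (0.22) and Mgst1 (0.22), and to Anxa3 Tbxas1 (0.22) and Tnfrsf1b (0.27). S100a6 was nearest to Mt2 (0.27) and Rnase4 (0.28), and S100a11 to Apod (0.32) and Bgn (0.33). Those of S100a10 and Anxa5 were nearest to Rplp0 (0.17) and Psme1 (0.18), and to Hexa (0.10) and Selenop (0.10). For S100a4 the nearest gene was Gm42674 (0.13), which overlaps it, and the next was Gfap (0.35). Distances reflect shared groups and depth as well as the genes.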

How the data were processed

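RNA from cortex was sequenced in 29 mice. Per the study's methods, TRIzol and RNeasy extraction, polyA selection, TruSeq stranded libraries, alignment and counting preceded deposit. The authors deposited raw counts of reads per Ensembl gene, 1 file per mouse. Aligner, genome build, annotation and use of strand are not given in the sources used here. Groups came from the sample labels. Each sample was 1 mouse.

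All 8 groups were fitted together with edgeR 4.0.16 (R 4.3.3) after filterByExpr by group and TMM scaling, and contrasts were tested by its quasi-likelihood F test with Benjamini-Hochberg adjustment over 17031 genes. SE is the log2 fold change divided by the root of F. A gene was called when its adjusted p was under 0.05 and its log2 fold change exceeded 1 in size. Log2 CPM used a prior count of 2. Positions and exon lengths came from GENCODE M21 (GRCm38). The code was tested on simulated data. Alternatives were RLE scaling, other filters, thresholds and samples, DESeq2 1.42.0, cohort and leaving out each mouse.

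The 10 genes and all lists were chosen with earlier results of these data known. Named were the 10 genes, at most the 2 called genes of each other list with the largest change in WT mice, and the 2 most alike genes. Others are marked where named. Counts over the list of plasminogen system genes are not reported here. Total counts were 17789044 to 43403413 per mouse.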

Additional observations from a re-analysis of the deposited data

Results flagged for a closer look

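Among 40 sets of values tested for a sample far from the others (each gene in each group of 4 or more mice), 3 held one, and chance gives about 1 in 20. Delayed tacrolimus mouse 5 had 13.74 CPM of S100a11, against 6.56 to 8.47 CPM in the other delayed mice, and 55.2 CPM of Anxa1, against 11.2 to 21.1 CPM. Non-stroked WT mouse 1 had 0.484 CPM of Anxa1, against 0.962 to 0.981 CPM in the other non-stroked WT mice.

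Among 30 tested differences between stroke responses, 5 were called, all between delayed and acute tacrolimus, whose responses share the same controls. The log2 difference was 1.11 for S100a4, 1.23 for S100a11, 2.17 for Anxa1, 1.47 for Anxa2 and 1.32 for Anxa3. Each was higher in the delayed mice, and none was called within TF.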

How the results depend on the processing

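The number of genes called after stroke was 6 to 10 of 10 in WT, 4 to 8 in Rag2-/-, 6 to 9 in NSG and 6 to 10 in WT-Tacr delayed mice over all alternatives. A gene removed by a filter counts as not called. Of all genes, 7.3%, 4.33%, 5.48% and 15.5% were called in either direction in the main analysis, in the same order. Without a minimum fold change these shares were 26.9%, 8.23%, 21.9% and 55.2%. In WT-Tacr acute mice it was 0 with cohort as a covariate, 0 within Imm2 and 0 with only the groups compared, and 0 to 7 when each mouse was left out. Between acute tacrolimus and WT mice it was 0 to 6 when each mouse was left out. Between delayed and acute tacrolimus it was 0 within TF, 0 with only the groups compared, and 0 to 7 when each mouse was left out. Of 2226 alternative values of single genes, 2092 kept their side of the threshold, 77 lost and 35 gained a call, and 22 reversed, none of them called in the main analysis. Of the 2092, 57 changed sign, none of them called. The cause was not tested.

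Between acute tacrolimus and WT mice, S100a8 was 1.46 and S100a9 1.32 within Imm2, which holds 1 acute mouse, and leaving out each mouse gave -0.74 to 0.56 and -1.03 to 0.68. With cohort as a covariate S100a6 was -0.067 between delayed tacrolimus and WT mice. For the response in Rag2-/- against WT mice, S100a6 was 0.091, S100a9 0.61 and Anxa2 0.26 with cohort as a covariate, and S100a6 was 0.030, S100a8 1.30, S100a9 1.20 and Anxa2 0.19 within Imm2. For NSG against WT mice, S100a6 was 0.20, S100a9 0.44, Anxa1 0.044, Anxa2 0.53 and Anxa3 0.40 with the covariate, and S100a6 was 0.12, S100a8 1.32, S100a9 1.01, Anxa2 0.45 and Anxa3 0.38 within Imm2.

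Replicate numbers share only a name: deviations of same-numbered non-stroked mice correlated at -0.258 to 0.108. With the replicate number as a block, 0 of the 10 genes were called in the 3 non-stroked comparisons, as without the block. Of all genes, the block gave 0.0442% called between Rag2-/- and WT, 2% between NSG and WT and 2.33% between NSG and Rag2-/- mice. The same mice without the block gave 0.00632%, 2.59% and 2.58%. Within-cohort fits left few mice, and S100a8 and S100a9 had 83 counts or fewer per mouse.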
